A study of Mus musculus with 6 samples.

Results

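The 43 genes described here are the chaperones and regulators of the heat shock response and of the stress response of the endoplasmic reticulum (ER). They were chosen by symbol from a list made with earlier results of these data known. All 43 were found among the 56748 mouse genes of the deposited table. Of these, 21 belong to the cytosol and mitochondria and are called heat shock genes, and 22 belong to the ER stress response and to the integrated stress response. Their values were measured in the brains of mice that carried MCF10DCIS, a human breast cell line that models ductal carcinoma in situ, in a mouse intraductal model. The implanted line expressed NanoLuc, a luciferase, fused to the extracellular vesicle protein CD63. Polyadenylated RNA was sequenced from brains taken 3 days or 28 days after implantation, with 3 libraries per time and every mouse implanted. Brains without an implant were not analysed here, and the labels name no mouse strain or age. The labels name the implanted line as the cell type, but the tissue is brain: all 8 neuronal markers examined had reads in every library.

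The heat shock response and the ER stress response are separate programmes that act on the same problem, unfolded protein. In the cytosol, heat shock factor 1 switches on the HSP70 and HSP90 chaperones, their J-protein partners and the small heat shock proteins. In the ER lumen, the chaperone BiP, encoded by Hspa5, binds unfolded protein and restrains 3 sensors, IRE1, PERK and ATF6, which act through the transcription factors XBP1, ATF4 and ATF6. In brain, neurons hold large amounts of the constitutive chaperones, while the small heat shock protein αB-crystallin is known mainly from oligodendrocytes and astrocytes.

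At day 28 the 15 listed genes for folding and degradation in the ER were at lower mean levels than at day 3. Their log2 differences ran from -0.86 for Sdf2l1 to -0.03 for Dnajb9. The 4 small heat shock genes were lower too (-0.99 to -0.39). Over 45 further ER genes outside the members the median was -0.05, with 29 negative and 16 positive differences. The constitutive cytosolic chaperones differed less, and the ER stress sensors with Atf4 and Ddit3 had log2 differences between 0.02 and 0.19. In bulk tissue such differences cannot separate fewer cells of a type from less RNA per cell. No member passed the test over all genes. Of the 42 members tested, 0 had a limma adjusted p under 0.05 (background 0.192% of 16162 genes, 0.124% lower and 0.0681% higher at day 28) and 0 passed with voom, limma's model for read counts. An unadjusted limma p under 0.05 was reached by 13 members that were lower at day 28, against 6.39% of all genes, and by 1 that was higher, against 6.98%. Trib3, a pseudokinase induced by ATF4 and CHOP, was left untested because its mean was under 10 normalized counts, its libraries holding 3, 20 and 0 reads for day 3 and 10, 11 and 10 for day 28.

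The classes differed in how many members had separate groups, meaning that all 3 day 28 libraries lay below all 3 day 3 libraries. This held for 8 of 21 tested ER and integrated stress members (38.1%) and for 2 of 21 heat shock members (9.52%), against 9.21% of all tested genes. The share of heat shock members was therefore near the background. No member lay above day 3 in all 3 day 28 libraries, against 9.71% of all genes. The 15 genes of ER folding and degradation held 7 of the 8, and the 6 tested sensors and stress factors held the other one, Xbp1. The plan named the classes and the single roles, and these joined groups of roles were not part of it. Median log2 differences, day 28 minus day 3, were -0.31 for ER folding and degradation, 0.04 for sensors and stress factors and -0.11 for heat shock genes. Over all tested genes the median was -0.01, and 51.4% of genes had a negative difference, against 15 of 15 ER folding and degradation genes. These 15 were measured in the same libraries, and 14 of them had replicate 1 as their lowest day 3 library. They are therefore not 15 independent observations. The classes were not tested against each other.

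**Figure D1:**
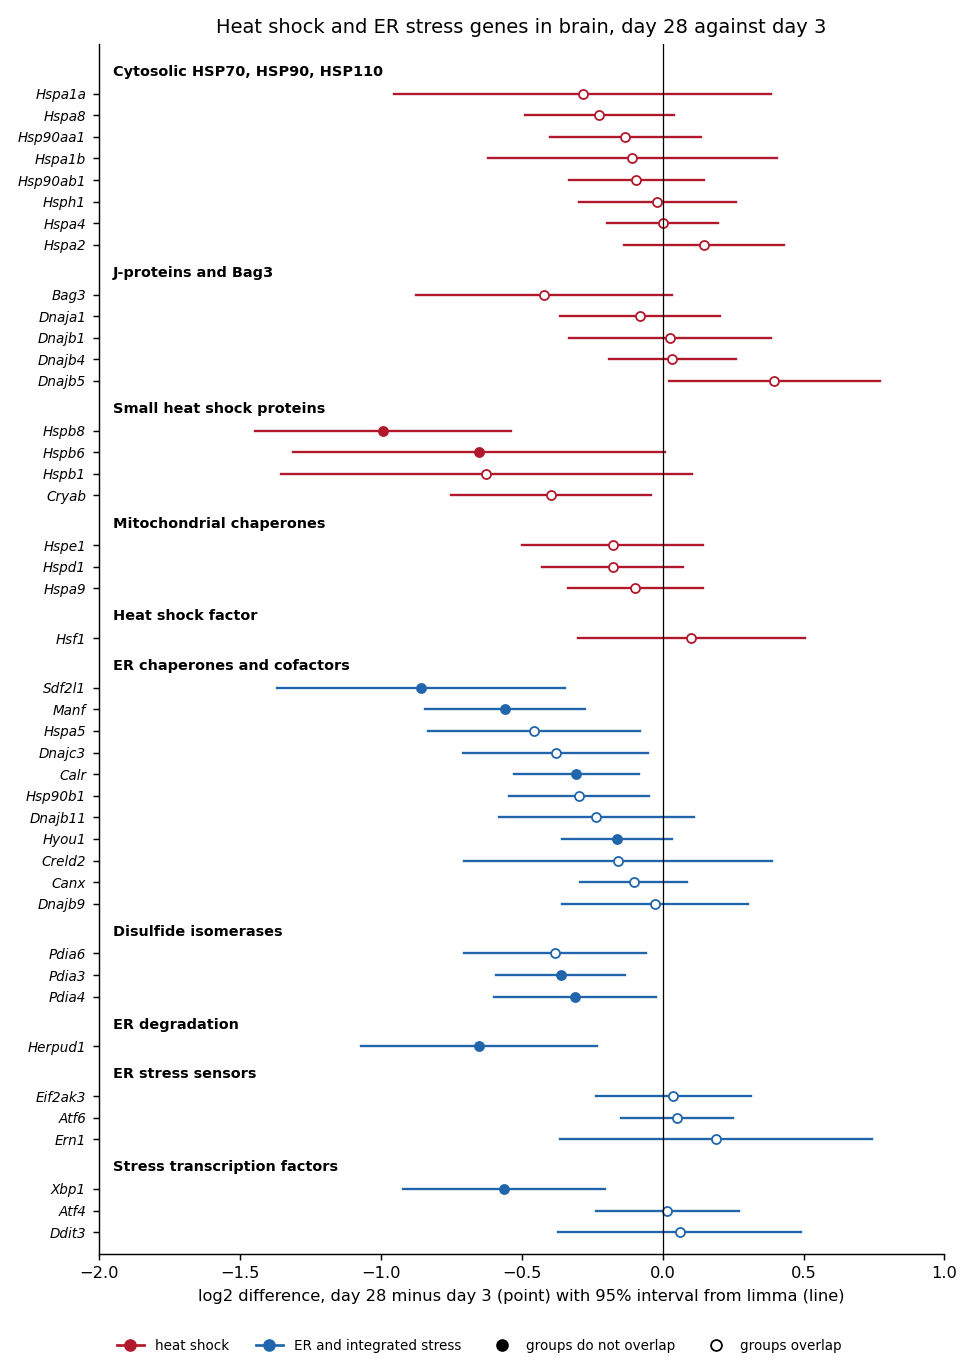
Log2 difference between day 28 and day 3 for the 42 tested members, grouped by role (rows), with the 95% interval from limma as a line and n = 3 libraries per group. Filled points are genes whose groups do not overlap; 7 of them are ER folding and degradation genes, 2 are small heat shock genes and 1 is Xbp1.

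Among the ER chaperones, Sdf2l1 and Manf had the largest differences. Manf, an ER-resident neurotrophic factor that leaves the cell under ER stress, had 704, 811 and 907 normalized counts in day 3 replicates 1 to 3 and 519, 521 and 598 in day 28 replicates 1 to 3. Every day 28 library lay below every day 3 library (log2 difference -0.56, SE 0.12, 95% interval -0.84 to -0.28, limma adjusted p = 0.118). Sdf2l1, a lumenal partner of BiP and its J-proteins, had 148, 214 and 145 normalized counts at day 3 and 108, 83.0 and 85.3 at day 28, again without overlap (log2 difference -0.86, SE 0.22, 95% interval -1.37 to -0.35, limma adjusted p = 0.159). Day 3 replicate 2 was the highest library for Sdf2l1 and day 3 replicate 3 the highest for Manf, so these 2 genes differed in their order within day 3. Of the 15 ER folding and degradation genes, 14 had replicate 1 as their lowest day 3 library.

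Hspa5, the BiP gene and the central ER chaperone, had 3175, 4996 and 4943 normalized counts at day 3 and 2936, 3190.3 and 3233 at day 28. Day 3 replicates 2 and 3 stood far above the day 28 libraries, while day 3 replicate 1 fell among them. The group means were 4371 ± 1037 and 3119.8 ± 161 (SD, n = 3), and the difference did not pass (log2 difference -0.46, SE 0.17, 95% interval -0.83 to -0.08, limma adjusted p = 0.28). Without day 3 replicate 1, Hspa5 had a log2 difference of -0.67 and passed (limma adjusted p = 0.0423). It had -0.35 (limma adjusted p = 0.595) when replicate 2 of day 3 was omitted and -0.35 (0.358) when replicate 3 was. Calr, the calcium-binding lectin chaperone calreticulin, had 5469, 6832 and 6115 normalized counts at day 3 and 4894, 4843 and 5095 at day 28, without overlap (log2 difference -0.31, SE 0.10, 95% interval -0.53 to -0.09, limma adjusted p = 0.225). Its membrane-bound relative Canx, calnexin, stood at 5542 ± 324 and 5157 ± 207 with overlapping groups (log2 difference -0.10).

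The remaining ER chaperones had negative differences too. Hsp90b1, the ER form of HSP90, had a log2 difference of -0.30 and day 3 replicate 1, at 4130.0 normalized counts, again within the day 28 range. Hyou1, a large HSP70-like exchange factor for BiP, had separate groups but a small difference (-0.16, SE 0.09). The J-proteins of the ER spread from -0.38 for Dnajc3, which also inhibits PERK, through -0.23 for Dnajb11 to -0.03 for Dnajb9, and none had separate groups. Creld2, a secreted ER stress gene, had overlapping groups and a wide interval (log2 difference -0.16, 95% interval -0.70 to 0.39).

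The protein disulfide isomerases, which form and shuffle disulfide bonds in the ER, differed alike. Pdia3, which works with calreticulin and calnexin, had 2678, 3329 and 3158 normalized counts at day 3 and 2256, 2455 and 2397 at day 28 (log2 difference -0.36, SE 0.10, 95% interval -0.59 to -0.13, limma adjusted p = 0.177). Pdia4 had separate groups too (log2 difference -0.31), and Pdia6 did not (-0.38), with day 3 replicate 1 at 1435 against 1465, 1304 and 1407 at day 28. Herpud1, an ER membrane protein that recruits the degradation machinery, had 779, 1358 and 905 normalized counts at day 3. At day 28 it had 617, 630.4 and 635, a spread far narrower than at day 3 (log2 difference -0.65, SE 0.18, 95% interval -1.07 to -0.23, limma adjusted p = 0.182). With replicate 2 of day 3 omitted, the highest library, its log2 difference was -0.42 (limma adjusted p = 0.357).

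**Figure D2:**
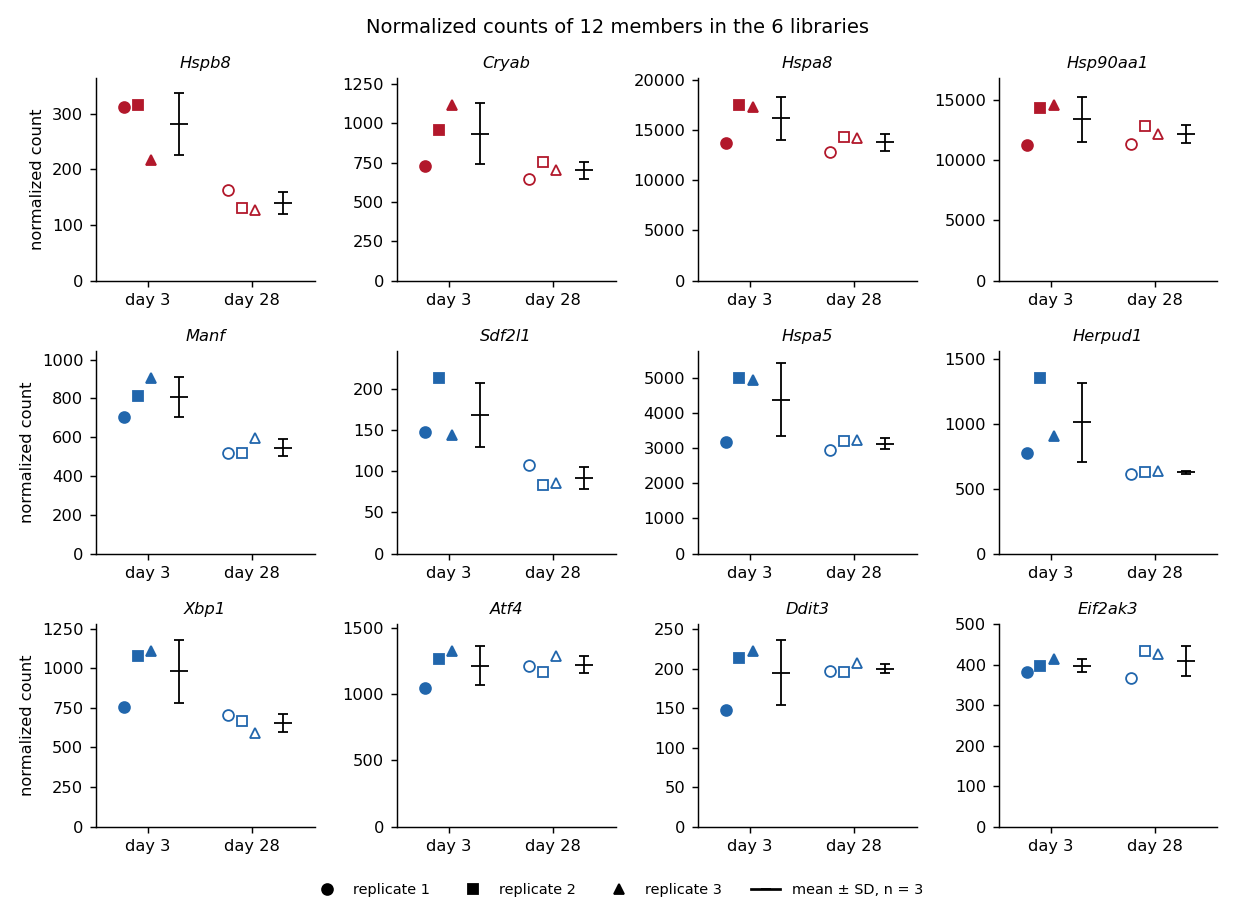
Normalized counts (vertical axes, from 0) of 12 members in the 6 libraries, with marker shapes for replicates and mean ± SD beside them (n = 3). Manf, Sdf2l1, Herpud1, Xbp1 and Hspb8 show groups that do not overlap, while Hspa5 has 1 day 3 library within the day 28 range and Atf4, Ddit3 and Eif2ak3 overlap.

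Some promoters of the ER and integrated stress members held a common sequence feature. The genes were listed as genes of this stress response, so a raised share among them is not independent evidence. RefSeq promoters (build GRCm38.p6) were matched by symbol for 19 of 22 ER and integrated stress members and 15 of 21 heat shock members, and the 250 bases before each start were searched on both strands. The ER stress element, bound by ATF6 with NF-Y and searched as CCAAT, any 9 bases and CCACG, was found in 7 of the 19 and in 0 of the 15, against 0.13% of 27025 genes with a promoter. The 7 were Hspa5, Hsp90b1, Calr, Canx, Dnajc3, Creld2 and Pdia6. Herpud1 was the 1 member with the related ER stress element II, searched as ATTGG, any 1 base and CCACG, found in 0.037% of all genes. A match is a description of letters and not evidence that a factor was bound in these brains. Canx (log2 difference -0.10) and Creld2 (-0.16), with the smallest differences of the 7, are left out below, so the choice followed the differences. The following stretches place the ER stress element in the rest of the 7 and ER stress element II in Herpud1. They are written 5′ to 3′ along the gene, with capitals for the fixed letters of the element, and the reverse complement of the element where it lies on the other strand.
Hspa5, chr2:34772013-34772055, plus strand: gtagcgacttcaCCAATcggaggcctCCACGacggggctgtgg
Calr, chr8:84847063-84847105, minus strand: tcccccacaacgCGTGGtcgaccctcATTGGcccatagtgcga
Pdia6, chr12:17266479-17266521, plus strand: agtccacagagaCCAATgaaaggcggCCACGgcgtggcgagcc
Dnajc3, chr14:118937815-118937857, plus strand: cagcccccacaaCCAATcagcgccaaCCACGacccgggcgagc
Hsp90b1, chr10:86705521-86705668, minus strand: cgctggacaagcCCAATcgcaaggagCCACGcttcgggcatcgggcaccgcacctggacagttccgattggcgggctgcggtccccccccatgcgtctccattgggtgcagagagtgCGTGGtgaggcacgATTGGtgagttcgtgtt
Herpud1, chr8:94386365-94386399, plus strand: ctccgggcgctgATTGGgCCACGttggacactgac

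The element of Hspa5 began 65 bases before the start, within a stretch that reaches from 77 to 35 bases before it, and Hsp90b1 held 2 copies in opposite orientations. The 7 members with the ER stress element all had negative differences, with a median of -0.31. Among the 11 tested members with a promoter but no such match, 7 were negative and the median was -0.23; these included Sdf2l1, Xbp1 and Herpud1, which had larger differences than any of the 7. The 11 also included Ern1, Eif2ak3, Atf4 and Ddit3, all with positive differences, and Herpud1 holds ER stress element II. A link between the letters and the differences was not tested. The unfolded protein response element TGACGTGG was found in 0 of 19 (0.603% of all genes). The composite site of ATF4 and CHOP, searched as TGATGNAA, was found in 1, Herpud1 (3.91% of all genes).

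The 3 sensors, Atf4 and Ddit3 had positive or near-zero differences with intervals on both sides of 0. Eif2ak3, which encodes PERK, had 383, 398 and 414 normalized counts at day 3 and 367, 435 and 427 at day 28, with overlapping groups (log2 difference 0.04, SE 0.12, 95% interval -0.24 to 0.31, limma adjusted p = 0.924). The interval did not reach the difference measured for Manf. Atf6 stood at 1093 ± 44.0 and 1133 ± 36.0 (log2 difference 0.05) and Ern1, which encodes IRE1, at 145 ± 39.9 and 163 ± 31.6 (0.19, 95% interval -0.36 to 0.74).

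Xbp1 was the exception among the factors. Its mRNA is spliced by IRE1 to make the active factor, and gene counts do not separate spliced from unspliced forms. It had 753, 1078 and 1111 normalized counts at day 3 and 705, 668 and 594 at day 28, without overlap (log2 difference -0.56, SE 0.16, 95% interval -0.92 to -0.20, limma adjusted p = 0.18). Atf4, the main effector of the integrated stress response, had 1047, 1266 and 1327 normalized counts at day 3 and 1213, 1164 and 1289 at day 28 (log2 difference 0.02, SE 0.11, 95% interval -0.24 to 0.27, limma adjusted p = 0.968). Ddit3, which encodes the pro-apoptotic factor CHOP, had 147, 214 and 223 normalized counts at day 3 and 198, 196 and 207 at day 28 (log2 difference 0.06, SE 0.19, 95% interval -0.37 to 0.49, limma adjusted p = 0.923). Its day 3 range enclosed all 3 day 28 libraries. Atf4 is controlled largely by translation, so its mRNA level does not report its protein.

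The 4 small heat shock genes, whose products hold unfolded proteins without using ATP, all had negative differences. Hspb8, which acts with the co-chaperone Bag3 in selective autophagy, had 311, 316 and 217 normalized counts at day 3 and 163, 130.4 and 126 at day 28. Its groups did not overlap, and it had the smallest adjusted p of all members (log2 difference -0.99, SE 0.20, 95% interval -1.45 to -0.54, limma adjusted p = 0.0951). Without day 3 replicate 3 its log2 difference was -1.17 and it passed (limma adjusted p = 0.0182). Omitting replicate 2 of day 3 gave -0.90 (limma adjusted p = 0.329), and the cerebellum-rich libraries, replicates 1 and 2 of day 3, when both were omitted, gave -0.64 (0.415). With the level of cerebellar markers as a covariate it was -0.81 (limma adjusted p = 0.523). Hspb6 also had separate groups, with 74.2, 103 and 80.3 against 38.9, 59.8 and 66.3 normalized counts (log2 difference -0.65, SE 0.29, 95% interval -1.31 to 0.01, limma adjusted p = 0.376). Hspb1 had 48.5, 83.3 and 84.0 normalized counts at day 3 and 35.9, 48.2 and 52.1 at day 28, with day 3 replicate 1 inside the day 28 range (log2 difference -0.63, SE 0.32, 95% interval -1.35 to 0.10, limma adjusted p = 0.437). Cryab, which encodes αB-crystallin, had 727, 956 and 1117 at day 3 and 647, 751 and 703 at day 28, overlapping through the same library (log2 difference -0.39, SE 0.16, 95% interval -0.75 to -0.04, limma adjusted p = 0.321). Single omissions moved Hspb6 to -0.43 (replicate 1 of day 28) and Cryab to -0.25 (replicate 3 of day 3), and omitting both cerebellum-rich libraries moved Cryab to -0.68.

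The constitutive and inducible cytosolic chaperones had overlapping groups without exception among their 8 genes. Hspa8, the constitutive cytosolic HSP70, had 13734, 17564 and 17387 normalized counts at day 3 and 12818, 14389 and 14248 at day 28 (log2 difference -0.22, SE 0.12, 95% interval -0.49 to 0.04, limma adjusted p = 0.441). Hsp90aa1 had 11230.4, 14338 and 14603 at day 3 and 11383, 12872 and 12169 at day 28 (log2 difference -0.13, SE 0.12, 95% interval -0.40 to 0.13, limma adjusted p = 0.669), and Hsp90ab1 stood at 22979 ± 2296 and 21489 ± 1277 (log2 difference -0.09). Hsph1, the HSP110 exchange factor, Hspa4 and Hspa2 had differences of -0.02, 0.00 and 0.15.

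The stress-inducible pair Hspa1a and Hspa1b, the genes most strongly induced by heat shock factor 1, had overlapping groups. Hspa1a had 43.05, 62.7 and 70.6 normalized counts at day 3 and 44.9, 46.4 and 50.2 at day 28 (log2 difference -0.28, SE 0.29, 95% interval -0.95 to 0.39, limma adjusted p = 0.725). Hspa1b had 106, 161 and 130.2 at day 3 and 102, 124 and 141 at day 28 (log2 difference -0.11, SE 0.23, 95% interval -0.62 to 0.40, limma adjusted p = 0.876). Hspa1a moved to -0.49 with replicate 1 of day 3 omitted, to -0.14 with replicate 3 of day 3 omitted and to -0.57 with both cerebellum-rich libraries omitted. The 2 genes are near copies: 58.8% of the 50-base words in Hspa1a transcripts also occur in Hspa1b transcripts in GENCODE M21, so how reads were divided between them is uncertain.

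Of the co-chaperones, Dnajb5 was the member with the highest positive difference. It encodes a J-protein of HSP70 and had 1327, 1672 and 2028 normalized counts at day 3 and 2446, 1837 and 2283 at day 28, with overlap (log2 difference 0.40, SE 0.16, 95% interval 0.02 to 0.77, limma adjusted p = 0.345). Its difference was 0.24 when replicate 1 of day 3 was omitted and 0.10 when both cerebellum-rich libraries were. Bag3, the HSP70 exchange factor that pairs with Hspb8, had 242, 220.0 and 168 at day 3 and 184, 136 and 149 at day 28 (log2 difference -0.42, SE 0.20, 95% interval -0.87 to 0.03, limma adjusted p = 0.407), and moved to -0.12 without both cerebellum-rich libraries. Dnaja1, Dnajb1 and Dnajb4 had differences of -0.08, 0.03 and 0.03. Hsf1, the regulator itself, had 487, 305 and 375 normalized counts at day 3 and 438, 369 and 427 at day 28, and its highest and lowest libraries were both at day 3 (log2 difference 0.10, SE 0.18, 95% interval -0.30 to 0.50, limma adjusted p = 0.847).

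The mitochondrial chaperones Hspd1, Hspe1 and Hspa9 had differences of -0.18, -0.18 and -0.10, with overlapping groups. Hspd1 and Hspe1, which form the mitochondrial folding chamber and its lid, are transcribed in opposite directions from 1 shared promoter. They were also the 2 of 15 heat shock members with a match to the heat shock element, searched as GAA, TTC and GAA with any 2 bases between them and found in 0.514% of all genes. The stretch is shown from both genes, as it holds the same 42 bases read on either strand, with 2 overlapping matches in capitals.
Hspd1, chr1:55088047-55088088, minus strand: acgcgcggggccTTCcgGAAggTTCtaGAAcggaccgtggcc
Hspe1, chr1:55088047-55088088, plus strand: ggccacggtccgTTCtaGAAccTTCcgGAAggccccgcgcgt

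The other 13 heat shock promoters in the table, those of Hspa1a and Hspa1b among them, did not hold these letters in this window, from which nothing follows about the factor. Members not matched were Hspa8, Hsp90aa1, Hsp90ab1, Cryab, Hspa9, Hsf1, Hyou1, Manf and Atf6. Reads of Hspd1 and of several abundant heat shock genes may be divided with pseudogenes. The share of 50-base words found in transcripts of another gene was 62.3% for Hspa1b, 48.8% for Hspb1, 47.5% for Hsp90aa1, 39.7% for Hspd1 and 38.6% for Hspa8. It was 0 for Hspa5, Manf, Sdf2l1, Pdia3, Herpud1, Xbp1 and Hspb8. Over the 10 heat shock members with under 1% of words shared, the median log2 difference was 0.01 rather than -0.11. Hspb2 lies on the opposite strand over 17% of the exon bases of Cryab. The libraries were stranded, but how strand was used in counting was not given in the sources used here.

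The libraries of day 3 were less alike than those of day 28 for these genes. The log2 standard deviation was larger at day 3 for 39 of 42 members, against 67.4% of all tested genes. Its median over the members was 0.24 at day 3 and 0.10 at day 28. Replicate 1 of day 3 was the lowest of the 3 day 3 libraries for 36 of 42 members (85.7%), against 38.1% of all tested genes. Mean deviations of the 15 ER folding and degradation genes from their 6-library means were -0.08, 0.35 and 0.26 at day 3, in replicate order, against -0.21, -0.19 and -0.13 at day 28. Replicate 1 of day 3 thus lay above all day 28 libraries in this mean but by less than replicates 2 and 3. The 8 cytosolic chaperones had deviations of -0.19, 0.16 and 0.16 at day 3, in replicate order, against -0.13, 0.01 and -0.01 at day 28, with day 3 replicate 1 the lowest of all 6. The 4 small heat shock genes had 0.11, 0.53 and 0.36 at day 3, in replicate order, against -0.50, -0.27 and -0.24 at day 28, without overlap.

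**Figure D3:**
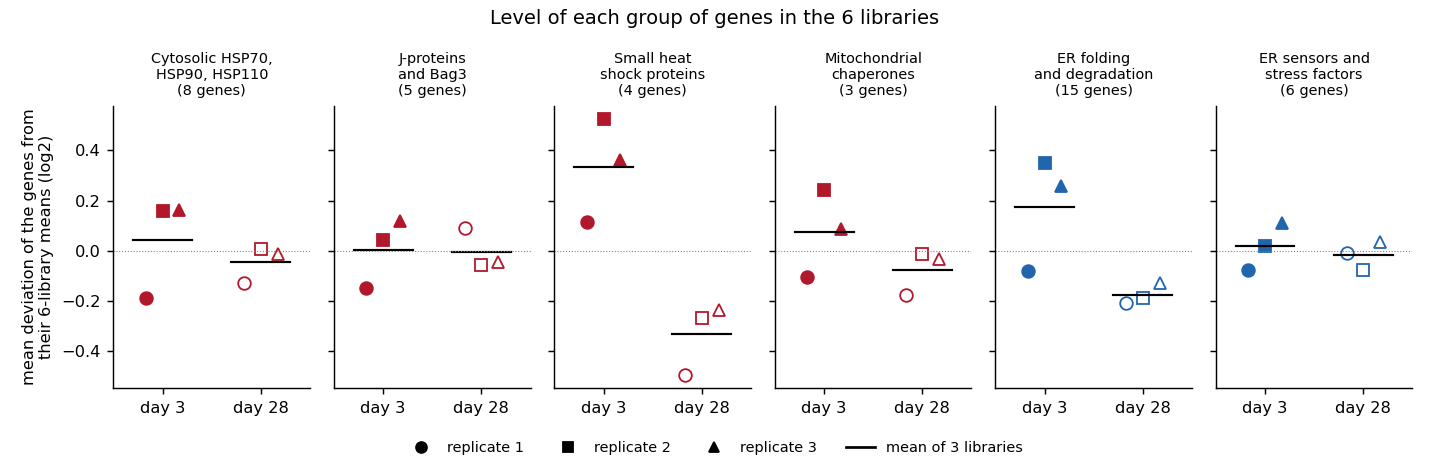
Mean deviation (log2) of the genes of each role from their own 6-library means, for 3 day 3 libraries (filled) and 3 day 28 libraries (open), with black bars for group means. Small heat shock genes and ER folding and degradation genes do not overlap between times; in the other 4 panels the times overlap, and day 3 replicate 1 is the lowest day 3 library in each panel.

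Leaving out single libraries changed the counts of ER folding and heat shock genes more than their direction. With replicate 1 of day 3 omitted, all 15 ER folding and degradation genes had separate groups, lower at day 28, as did 11 of 21 heat shock genes (background 18.9% with 2 libraries against 3). Omitting replicate 2 of day 3 left 7 of 15 and 2 of 21 (background 12.4%), and omitting replicate 3 left 7 of 15 and 3 of 21 (background 16.8%). An omission can only keep or raise a count of separate groups, so these counts do not measure stability. Replicate 1 was the lowest day 3 library for 93.3% of the ER folding and degradation genes, against 38.1% of all tested genes. Its omission therefore bears on these genes more than on the background. With replicate 1, 2 or 3 of day 28 omitted, 8, 8 and 9 of 15 ER folding genes had separate groups (backgrounds 12.5%, 14.2% and 13.2%).

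An unadjusted limma p under 0.05 was reached by 10 of 15 ER folding and degradation genes with all libraries, each lower at day 28. The count was 13 when replicate 1 of day 3 was omitted, 4 for replicate 2 and 5 for replicate 3. For the day 28 libraries it was 6, 6 and 8 in replicate order, against 4.14%, 4.97% and 4.65% of all genes. Of all genes, 8.69%, 4.31% and 8.50% reached this when lower, in the order of the day 3 replicates omitted. The median log2 difference of the ER folding genes was -0.42 with replicate 1 of day 3 omitted and -0.25 with replicate 2 omitted. The heat shock median was -0.25 and -0.06 in the same fits.

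**Figure D4:**
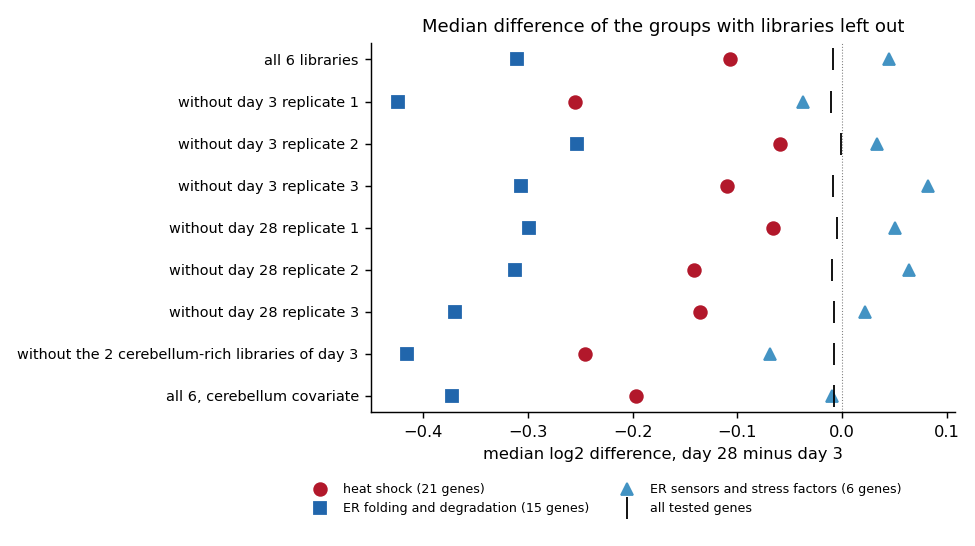
Median log2 difference, day 28 minus day 3, of 3 groups of members and of all tested genes, with libraries left out or a cerebellum covariate in the fit (rows). The ER folding and degradation genes lie between -0.42 and -0.25 and the heat shock genes between -0.25 and -0.06, and the sensors and stress factors lie on both sides of 0.

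Other genes of the same pathways were taken from 3 wider lists, in each of which 0 genes passed with voom as well as with limma. Of 40 tested cytosolic chaperones and co-chaperones, 0 passed (limma adjusted p of at least 0.201), 31 had negative differences, with a median of -0.14, and 6 lower and 1 higher had an unadjusted p under 0.05 (6.39% and 6.98% of all genes). The smallest p were those of Fkbp4, an HSP90 co-chaperone of steroid receptors (log2 difference -0.35, SE 0.11), Stip1, which links HSP70 to HSP90 (-0.27), and Hsf2, another heat shock factor (0.32). Of 45 further ER genes, 0 passed, 4 lower and 0 higher had an unadjusted p under 0.05 (6.39% and 6.98% of all genes), and 29 had negative differences, with a median of -0.05. Groups were separate and lower at day 28 for 11 of the 45 (24.4%) and for 7 of the 40 cytosolic genes (17.5%), against 9.21% of all genes. Derl1, a channel component of ER degradation, had 941, 1013 and 946 normalized counts at day 3 and 764, 766 and 682 at day 28, without overlap (log2 difference -0.39, SE 0.10, 95% interval -0.61 to -0.17, limma adjusted p = 0.147). Tmbim6, an ER calcium regulator, and Ppib, a lumenal proline isomerase, had log2 differences of -0.38 and -0.25, also without overlap.

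Of 37 tested genes of the integrated stress response, 0 passed, 28 had negative differences and the median was -0.18. At an unadjusted limma p under 0.05, 8 were lower and 2 higher, against 6.39% and 6.98% of all genes. Groups were separate for 13 of 37 that were lower (35.1%, against 9.21% of all genes) and for 2 that were higher (9.71% of all genes). Slc7a5 and Slc3a2, the 2 chains of a large neutral amino acid transporter, had log2 differences of -0.51 and -0.29, without overlap. Slc7a5 is also abundant in the blood-brain barrier. Pck2, a mitochondrial enzyme and ATF4 target, had 317, 245 and 248 normalized counts at day 3 and 167, 164 and 182 at day 28 (log2 difference -0.65, SE 0.16, 95% interval -1.01 to -0.28, limma adjusted p = 0.146).

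Markers of other cells and regions also differed between the libraries. Summed normalized counts of 10 oligodendrocyte markers were 111731 to 132815 at day 3 and 75757 to 93936 at day 28, with 0 at zero reads. Of these 10, 7 were lower without overlap (9.21% of all genes), the small heat shock gene Cryab being known from oligodendrocytes. Astrocyte markers summed to 54458 to 58674 at day 3 and 59165 to 61969.5 at day 28, a slightly higher sum at day 28. Yet 8 of the 10 genes had negative differences, with a median of -0.33. Their mean deviations were 0.21, 0.21 and 0.07 at day 3, in replicate order, against -0.12, -0.16 and -0.20 at day 28. In this mean the times split without overlap, as for the ER folding genes. Endothelial markers summed to 2578 to 4767 at day 3 and 2879 to 3031 at day 28 and mural cell markers, from cells known to hold Hspb1 and Hspb6, to 2467 to 4454 at day 3 and 2761 to 3051 at day 28, with overlap. Cerebellar markers were high in day 3 replicates 1 and 2. Their mean deviations were 2.56, 2.57 and -1.56 at day 3, in replicate order, against -1.94, -2.05 and 0.43 at day 28. The ER folding and degradation genes had -0.08, 0.35 and 0.26 against -0.21, -0.19 and -0.13, so day 3 replicate 2 was high in both. With the cerebellar marker level as a covariate, the ER folding and degradation genes had a median log2 difference of -0.37. All 15 had negative differences, and 7 had an unadjusted limma p under 0.05, against 3.74% of all genes when lower. The smallest limma adjusted p among the 15 was 0.494. A link between the cerebellar markers and the ER folding genes was not otherwise tested. Up to 4 of 15 cerebellar markers had zero reads, in day 28 replicate 2. Markers of the other regions separated the times, as the ER folding genes did. The 12 striatum markers were all higher in mean at day 28, and summed to 16979 to 24542 at day 3 and 29631 to 36940.1 at day 28. Of these 12, 8 were higher without overlap, against 9.71% of all genes. With limma 1 passed and was higher (0.0681% of all genes), and 0 passed with voom. Of 7 tested hindbrain markers, 4 were lower without overlap, against 9.21% of all genes. Mean deviations of the 7 were 2.74, 1.88 and -0.17 at day 3, in replicate order, against -1.79, -1.52 and -1.13 at day 28. Up to 8 of 12 listed had zero reads in a library.

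Albumin mRNA, a liver transcript, had 65795 reads in day 3 replicate 2 against 23 to 1276 elsewhere. Of the ER folding and degradation genes, that library was the highest for Hspa5, Hsp90b1, Calr, Dnajb9, Dnajb11, Dnajc3, Sdf2l1, Creld2, Pdia3, Pdia6 and Herpud1. Day 3 replicate 3, with 392 albumin reads, was the highest for Hyou1, Canx, Manf and Pdia4. Hspa5 had 4996 normalized counts in day 3 replicate 2 and 4943 in day 3 replicate 3. Interferon-stimulated genes were highest in day 3 replicate 1 (summed counts 477 to 3372 at day 3 and 425 to 514 at day 28), the lowest day 3 library for 36 of 42 members. The 18 glucocorticoid-responsive genes, of which 6 passed with limma and were lower (0.124% of all genes) and 0 passed with voom, had mean deviations of 0.26, 0.70 and 0.37 at day 3, in replicate order, against -0.35, -0.52 and -0.46 at day 28, with the same split between times as the ER folding and small heat shock genes. Red blood cell markers had -0.21, 1.29 and 0.53 at day 3, in replicate order, against -0.60, -0.53 and -0.48 at day 28. The part of these cells and programmes in the results above was not tested.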

How the data were processed

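Polyadenylated RNA of 3 day 3 and 3 day 28 brain libraries was measured. The authors deposited log2 values of normalized counts. With the log2 and the added 1 undone, 100% of values were whole reads to within 0.001, with size factors from 0.822 to 1.12 and 11958137 to 16059196 reads per library. The build was GRCm39 per the submitters' processing notes, and which tools aligned and counted reads is not given in the sources used here. Symbols came from GENCODE M21, which is on another build, so gene coordinates are not given. Ddit3 had 2 identifiers, of which the 1 with reads was used.

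Genes with a mean of at least 10 normalized counts (16162) were tested on log2(normalized count + 1), a scale that understates changes of low genes, in limma 3.58.1 (R 4.3.3). The model held the time alone, with a variance prior that follows mean level and two-sided tests. Adjustment was by Benjamini-Hochberg over all genes at 0.05. Members and lists were chosen with earlier results of these data known. Values in every library are given for the members of smallest p in each class and for a fixed set of names, and of each pathway list the 3 genes of smallest p are named. The labels do not tie libraries to separate animals. The p-values therefore rest on the spread between these samples only, and part of it may be technical. All pairs of libraries within a group differed beyond sampling noise (chi-square of at least 8.39 per degree of freedom). In data simulated for this comparison with 16162 genes, 73.4% of 2-fold changes and 42 of 79810 unchanged genes were called. Changes smaller than 2-fold were not simulated. All tested members had log2 differences between -0.99 and 0.40, so the 73.4% does not tell how often differences of their size are called. In the measured libraries, 67.4% of all tested genes had a larger log2 standard deviation at day 3 than at day 28. Whether the shares called hold for the measured libraries was not tested. Alternatives covered the pseudocount, filter, scaling, variance model, library weights, a covariate, a block and libraries left out. The restriction to members with few shared 50-base words was chosen after seeing the data. Figures used matplotlib 3.10.9.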

Additional observations from a re-analysis of the deposited data

How the results depend on the processing

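The count of members past the threshold was 0 in every setting except 3: it was 1, Hspb8, at an adjusted p threshold of 0.10, and ran from 0 to 1 with single libraries left out (Hspa5 without day 3 replicate 1, Hspb8 without day 3 replicate 3). The count of all genes changed was 31, and it was 152 at the threshold of 0.10, 68 with no filter, 3 with no trend in the variance prior, 69 with array weights, 0 with the replicate number as a block, 0 with voom, 2 with the cerebellum covariate and 0 without both cerebellum-rich libraries of day 3. With single libraries left out it ran from 1 to 623, and the cause was not tested. The median log2 difference of the heat shock genes ran from -0.25 to -0.060 with single libraries left out, and was -0.25 without both cerebellum-rich libraries and 0.014 over the members with few shared words. That of the ER and integrated stress genes moved by less than the spread between replicates in every setting. Of 420 values of 21 named genes under 20 settings, 403 kept direction and side of the threshold, 3 passed it newly and 14 changed sign. Several settings cannot change a log2 difference: the 0.10 threshold, the filters, the variance prior without trend and the balanced replicate block. No named gene passed in the main fit. The tally therefore overstates how stable the values are. The sign changes were of Atf4 (-0.011 with array weights, -0.041 with the cerebellum covariate, -0.12 without both cerebellum-rich libraries), Ddit3 (-0.0009, -0.060 and -0.16 in the same settings) and Eif2ak3 (-0.018 without both libraries). With single libraries left out, the log2 difference of Atf4 ran from -0.086 to 0.085, of Ddit3 from -0.13 to 0.17, of Eif2ak3 from -0.0062 to 0.12, of Hsf1 from -0.060 to 0.28 and of Hspa1b from -0.26 to 0.044. Same-numbered libraries of the 2 times deviated together with correlations of 0.034, 0.131 and -0.062, so the numbers were not taken as pairs. With the replicate block 0 members passed. Both class medians (-0.11 and -0.30) were as without the block, which a balanced design fixes in advance. The 2 planned tests that model raw counts were not run, because the deposited values are on a log2 scale. Each tested member had at least 36 reads in each library, and 3 libraries per group limit the precision.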
